A study of Mus musculus with 3 samples.

Results

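The 34 genes described here form a set named for the cell cycle and chromosome segregation. They were followed in single cells of mouse pancreatic islets with and without the transcription factor Taf4. They were taken by name from a list made with earlier results of these data known, out of 17226 genes listed in any of the 3 count tables. All 34 were listed for WT and 5 weeks, while *Ccnb1* and *Ccna2* were not listed at 1 week. The study asked how losing Taf4, a subunit of the general transcription factor TFIID, changes adult beta cells. Adult C57/Bl6 mice carried the Ins1::Cre-ERT2 transgene, which is driven by an insulin promoter and so acts in beta cells. All groups received tamoxifen, according to the methods of the study: the mutants were Taf4 lox/lox and lost the gene in beta cells (Taf4 b-/-), and the controls (WT) were Taf4+/+. Islets were taken 1 week or 5 weeks after inactivation in the mutants, and no time is given for WT. Each group is 1 library of live-sorted cells from 300 islets, taken from 1 mouse for WT and from 2 pooled mice for each mutant time. With 1 library per group nothing measures how mice differ, so groups were compared by size only, with no p-values.

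Cells enter the cycle when D cyclins activate their kinases and release E2F factors, which switch on the replication genes. Later, kinases of the *Cdk1* type, condensins, centromere proteins and spindle proteins divide the copied chromosomes, and the anaphase-promoting complex ends mitosis. Adult islet cells divide rarely, and cyclin D2 is the D cyclin best known for postnatal growth of mouse beta cells.

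Cells were classed by the share of their UMIs (unique molecular identifiers, counts of single RNA molecules) from a hormone gene. In WT and at 5 weeks a beta cell had at least 20% *Ins2* and under 3% *Gcg*, an alpha cell at least 15% *Gcg* and a delta cell at least 5% *Sst*. At 1 week the limits were 5%, 8% and 1.5%, in cells of at least 5000 UMIs. This gave 8271 beta, 2815 alpha and 621 delta cells in WT, 562, 175 and 38 at 1 week, and 5685, 3322 and 1443 at 5 weeks. Between 6 and 7 of 8 beta markers, 6 and 7 of 8 alpha markers and all 6 delta markers were highest in their own class in each library. Each list includes the hormone gene that defines its class (*Ins2*, *Gcg* or *Sst*), whose place was fixed by the rule. Levels are CPM (UMIs of a gene per 1000000 UMIs, both summed over the cells of a class). The exact 95% interval follows in parentheses and covers nothing but counting error.

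Several facts of the libraries bear on every value below. Depth differed: the median alpha cell held 765 UMIs in WT, 21709 at 1 week and 1896.5 at 5 weeks, and the median beta cell 1656, 24754.5 and 3868. The WT library went against its description as male, with 17357 UMIs of *Xist*, which silences an X chromosome in females, and no entry for *Ddx3y*, *Kdm5d*, *Eif2s3y* or *Uty* of the Y chromosome. *Xist* had 17 UMIs at 1 week and 11 at 5 weeks, and *Ddx3y* had 1488 and 1349. In each comparison with WT, genotype, sex, animal and library therefore cannot be told apart, and only the comparisons within a library do not rest on WT. Libraries shared 2 to 33 cell barcodes by pair, none of them among the cycling cells described below. Taf4 itself stood at 4.68 CPM in WT beta cells, 7.53 CPM at 1 week and 3.54 CPM at 5 weeks. However, 3′ tags need not lie in the deleted part of the gene, so these levels do not check the deletion. By staining in the paper, mutant alpha cells kept Taf4. Its lineage tracing, at a later time, traced most *Gcg* cells inside mutant islets to beta cells. The paper proposes that its 5-week alpha populations may be normal cells and cells that came from beta cells. Alpha cells here were not divided by origin.

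At 5 weeks the largest differences from WT were in alpha cells. *Hmgb2*, which encodes a chromatin protein, was 5.83-fold higher in alpha cells, and *Stmn1*, which encodes a protein that destabilises microtubules, 10.95-fold higher, though its shares of cells at equal depth had overlapping intervals. *Ube2c* and *Cenpf*, of mitosis, had no UMI in WT alpha cells and 32 and 26 UMIs at 5 weeks. In beta cells the differences were smaller, and in delta cells no member was higher by 2-fold or more. Genes with at least 20 UMIs in both classes together were compared: 20 of the 34 members in beta cells, 17 in alpha cells and 13 in delta cells. In beta cells 5 members were higher by 2-fold or more and 0 lower, against 9.43% and 5.99% of all genes. These were *Aurka* (log2 ratio 1.78), *Stmn1* (1.45), *H2afx* (1.09), *Pcna* (1.06) and *Smc4* (1.05). The count was 3 without hormone genes in the total, beside 7.89% of all genes, and 11 by the mean of single cells, beside 12.0%. In alpha cells 5 were higher and 0 lower, against 7.41% and 2.11% of all genes. These were *Ube2c* and *Cenpf*, both at 0 in WT, with *Stmn1* (3.45), *Hmgb2* (2.54) and *Mcm6* (1.20). The count was 2 of 12 with cells thinned to 1000 UMIs, beside 12.4% of all genes, and 3 of 15 without the cells marked below, beside 7.28%. In delta cells 0 were higher and 1 lower, against 10.4% and 3.56% of all genes. The median log2 ratio of the members compared was 0.78 in beta cells, 0.21 in alpha cells and -0.01 in delta cells, beside 0.18, 0.09 and 0.09 over all genes. With the hormone genes left out of the total, the alpha medians were 0.37 for the members and 0.25 for all genes, of which 10.7% were then higher and 1.47% lower.

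**Figure D1:**
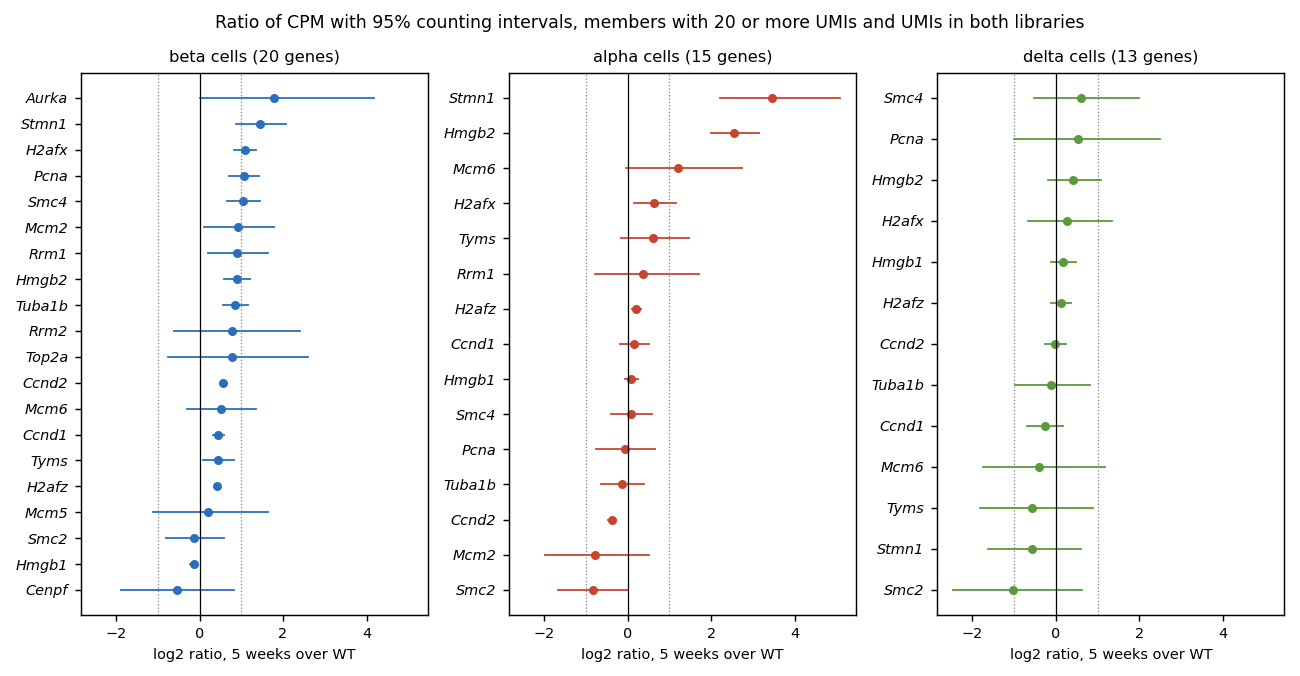
Log2 ratio of CPM, 5 weeks over WT (horizontal axis), for each member with at least 20 UMIs and UMIs in both libraries, in beta, alpha and delta cells, with exact 95% counting intervals as lines and dotted lines at a 2-fold difference. Stmn1 (3.45) and Hmgb2 (2.54) stand apart in alpha cells, and Ube2c and Cenpf, with 0 UMIs in WT alpha cells, have no point.

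Of the D cyclins, *Ccnd2* was higher than WT in one class and lower in another. It encodes cyclin D2 and stood in WT at 226.0 CPM in beta cells (219 to 233), 442.6 CPM in alpha cells (416 to 470) and 358 CPM in delta cells (305 to 419). At 5 weeks the same classes held 332 CPM (from 325 to 339), then 341 (327 to 355) and 356 (331 to 381), so the 3 levels lay close together. In CPM the 1.96-fold excess of alpha over beta cells in WT was thus 1.03-fold at 5 weeks. That narrowing is seen only with hormone UMIs in the total. WT beta and alpha cells had 3625 and 1065 UMIs of *Ccnd2*, beside 5131618 and 1406577 UMIs without hormone genes. At 5 weeks they had 9287 and 2382, beside 9440554 and 3649021. On these totals beta and alpha cells lie closer in WT than at 5 weeks. The log2 ratio to WT was 0.55 in beta cells and -0.38 in alpha cells, both within 2-fold. When each cell was thinned to 1000 UMIs, *Ccnd2* was found in 1552 of 7769 WT beta cells (19.98%, 19.1 to 20.9) and 27.3% of those at 5 weeks (26.1 to 28.5). The shares of alpha cells were 36.3% (32.6 to 40.2) and 28.1% (26.5 to 29.7). Cells under 1000 UMIs were left out, 502 beta and 2176 alpha cells in WT and 207 and 314 at 5 weeks. The unthinned shares were 33.8% and 69.9% of beta cells and 30.7% and 46.9% of alpha cells.

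*Ccnd1*, which encodes cyclin D1, was highest in delta cells in every library. Delta cells held 129 CPM in WT, 126 CPM at 1 week and 107 CPM at 5 weeks, with intervals above those of both other classes each time. At 5 weeks delta and beta cells had 240 and 1464 UMIs of *Ccnd1*, beside 1450294 and 9440554 UMIs without hormone genes. On these totals their levels lie close. Beta cells held 38.4, 32.9 and 52.3 CPM of *Ccnd1*, and alpha cells 40.3, 51.6 and 44.9 CPM, so in CPM no class differed from WT by 2-fold. WT beta and alpha cells had 616 and 97 UMIs of it, beside 5131618 and 1406577 without hormone genes. On these totals the WT beta level was above the WT alpha level. The 1-week beta cells had 494, beside 8577298, which is below WT beta cells by more than 2-fold.

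Of the 8 members that act in DNA replication, 7 could be compared in 5-week beta cells, where 1 was higher by 2-fold or more beside 9.43% of all genes. In alpha cells 5 could be compared and 1 was higher, beside 7.41%. *Pcna* encodes the sliding clamp of DNA polymerase. WT beta cells held 5.24 CPM of *Pcna* (4.18 to 6.48), those at 1 week 17.8 CPM (15.7 to 20.1) and those at 5 weeks 10.9 CPM (9.75 to 12.2), and these 3 intervals do not overlap. Hormones took 42.8% of beta UMIs at 1 week, beside 68.0% in WT and 66.3% at 5 weeks. Without hormone genes the beta totals were 8577298 UMIs at 1 week and 9440554 at 5 weeks, beside 267 and 306 of *Pcna*. On these totals the 1-week and 5-week levels lie close. At 1000 UMIs per cell *Pcna* was found in 0.553% of WT and 1.26% of 5-week beta cells, and in 1.25% and 0.964% of alpha cells. The alpha levels of 10.4 CPM (WT) and 9.88 CPM (5 weeks) have overlapping intervals.

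*Mcm6*, a subunit of the helicase that opens DNA for replication, had 6 UMIs (2.49 CPM) in WT alpha cells and 40 UMIs (5.73 CPM) at 5 weeks. Its log2 ratio of 1.20 has an interval from -0.05 to 2.73, and it became -0.43 when cells were thinned to 1000 UMIs, so no difference was detectable at this depth. The other helicase subunits *Mcm2*, *Mcm3* and *Mcm5* were low throughout, with 1 to 56 UMIs per class in WT and at 5 weeks. *Tyms*, which makes thymidylate, was within 2-fold of WT in all 3 classes, from a log2 ratio of -0.56 in delta cells to 0.60 in alpha cells. The ribonucleotide reductase subunit *Rrm1* had log2 ratios of 0.90 in beta cells and 0.37 in alpha cells, and its partner *Rrm2* had at most 18 UMIs in any class.

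Of the chromatin proteins, *Hmgb2* bends DNA and is most abundant in dividing cells. Alpha cells held 11.6 CPM of *Hmgb2* (7.73 to 16.8) in WT, 59.9 CPM (52.3 to 68.3) at 1 week and 67.8 CPM (61.9 to 74.2) at 5 weeks. Beta cells held 7.04 CPM, 44.3 CPM and 13.01 CPM in the same order, and delta cells 58.9, 41.9 and 78.8 CPM. In WT the alpha level was 1.65-fold the beta level and below that of delta cells. At 5 weeks it was 5.22-fold the beta level, and its interval overlapped that of delta cells. The WT beta and alpha cells had 113 and 28 UMIs of *Hmgb2*, beside 5131618 and 1406577 UMIs without hormone genes. On these totals WT alpha cells were not above WT beta cells. The 5-week beta and alpha cells had 364 and 474 UMIs, beside 9440554 and 3649021. On these totals alpha cells were above beta cells, by less than in CPM.

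The *Hmgb2* difference in alpha cells was spread over many cells. The 474 UMIs at 5 weeks lay in 380 cells, of which 324 held 1 UMI, and the 10 highest cells held 11.6% of them. At 1000 UMIs per cell, 3 of 639 WT alpha cells (0.469%, 0.0969 to 1.37) and 186 of 3008 5-week alpha cells (6.18%, 5.35 to 7.10) had *Hmgb2*, beside 1.31% of 5-week beta cells. Without thinning the alpha shares were 0.924% and 11.4%. The log2 ratio of 2.54 was 2.38 without the cycling cells described below. *Hmgb1*, its close relative, was within 2-fold in all 3 classes at 5 weeks, with log2 ratios from -0.14 to 0.18.

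The histone variant genes differed less. *H2afx* encodes the variant that is phosphorylated at DNA breaks, and WT beta cells held 9.91 CPM of it (8.43 to 11.6), 1-week beta cells 30.8 CPM (28.1 to 33.7) and 5-week beta cells 21.1 CPM (19.4 to 22.8). The 1-week beta cells had 462 UMIs of it and those at 5 weeks 589, beside 8577298 and 9440554 UMIs without hormone genes. On these totals 5 weeks was above 1 week. Alpha cells of WT and of 5 weeks held 17.9 and 27.8 CPM, within 2-fold of each other. *H2afz*, which encodes the promoter-associated variant H2A.Z, was within 2-fold in all 3 classes, with log2 ratios of 0.43, 0.21 and 0.12 in beta, alpha and delta cells.

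**Figure D2:**
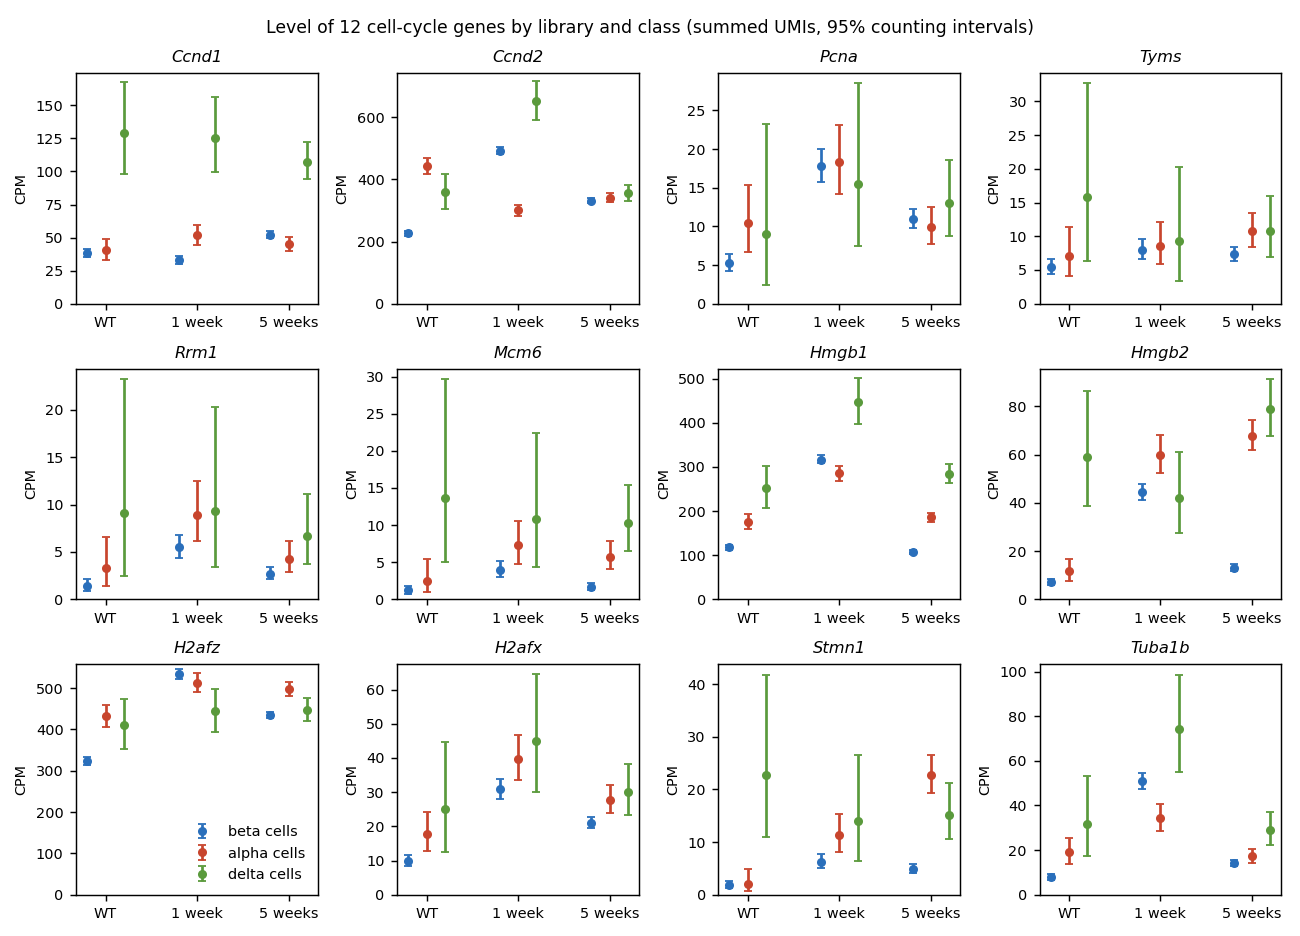
CPM (vertical axes, starting at 0) of 12 members in beta, alpha and delta cells of the WT, 1-week and 5-week libraries (horizontal axes), with exact 95% counting intervals. Hmgb2 in alpha cells goes from 11.6 CPM in WT to 67.8 CPM at 5 weeks. Ccnd2 in beta and alpha cells is apart in WT and together at 5 weeks, but only with hormone UMIs in the total.

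Among the microtubule genes *Stmn1* differed most. It had 5 UMIs (2.08 CPM) in WT alpha cells, 42 UMIs (11.3 CPM) at 1 week and 159 UMIs (22.8 CPM) at 5 weeks. At 1000 UMIs per cell *Stmn1* was found in 3 of 639 WT alpha cells (0.469%, 0.0969 to 1.37) and 42 of 3008 at 5 weeks (1.40%, 1.01 to 1.88), with overlapping intervals, beside 0.438% of 5-week beta cells. Unthinned, the alpha shares were 0.178% and 2.17%. The 159 UMIs were concentrated: 64 of the 159 lay in the 12 alpha cells marked as cycling below, and the 10 highest cells held 43.4%. Without the cycling cells the log2 ratio was 2.72 in place of 3.45. Beta cells went from 29 UMIs (1.81 CPM) in WT to 138 UMIs (4.93 CPM), a log2 ratio of 1.45 (0.86 to 2.08). *Tuba1b*, an alpha tubulin, was within 2-fold in all 3 classes at 5 weeks, with log2 ratios of 0.85, -0.14 and -0.12. Thinned to 1000 UMIs per cell, the beta ratio was 1.40.

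The condensin genes *Smc2* and *Smc4* encode the paired arms of the complex that compacts chromosomes, and their ratios differed. WT beta cells held 4.55 CPM of *Smc4* (3.57 to 5.72), 1-week beta cells 22.2 CPM and 5-week beta cells 9.40 CPM (8.30 to 10.6). The same beta cells held 1.87, 4.20 and 1.72 CPM of *Smc2* in that order. In delta cells *Smc2* was the 1 member lower by 2-fold or more, with 6 UMIs in WT (13.6 CPM) and 15 UMIs at 5 weeks (6.72 CPM), and the interval of its log2 ratio of -1.02 runs from -2.47 to 0.64. The alpha levels of WT and 5 weeks were 20.4 and 21.5 CPM for *Smc4* and 8.73 and 4.87 CPM for *Smc2*.

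The remaining members act in G2 and mitosis, and most were too rare to compare. In beta cells *Mki67*, the antigen used to stain dividing cells, had 1 UMI in WT and 6 at 5 weeks. *Top2a*, which untangles replicated DNA, had 5 and 15 UMIs. The cyclin genes *Ccnb1*, *Ccnb2* and *Ccna2* had 2 to 5 UMIs each in beta cells of either library. *Aurka*, a kinase of the spindle poles, had 3 UMIs in WT beta cells and 18 at 5 weeks, a log2 ratio of 1.78 whose interval runs from 0.01 to 4.19. *Cenpf*, a kinetochore protein, had 10 and 12 UMIs there, and *Ube2c*, which adds ubiquitin for the anaphase-promoting complex, 8 and 7.

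In alpha cells *Ube2c* and *Cenpf* were the only ones of these genes with 20 UMIs. *Cdc20* activates the same complex, *Birc5* and *Cenpe* act at the centromere, and *Nusap1* and *Tpx2* bind spindle microtubules. WT alpha cells had 0 UMIs of *Ube2c*, *Birc5*, *Ccnb1*, *Ccnb2*, *Cdc20*, *Cenpe*, *Cenpf*, *Nusap1* and *Tpx2*, which allows up to 1.25 CPM for each of these 9 genes. At 5 weeks *Ube2c* had 32 UMIs (4.58 CPM), 3.67-fold the level that 3 counts would give in WT, and the exact interval of its log2 ratio lies above 1. Of these 32 UMIs, 31 lay in the cells marked as cycling below, which *Ube2c* helped to choose. *Cenpf* had 26 UMIs (3.72 CPM), 2.99-fold the level of 3 WT counts, and its interval starts at 1.18. The others were not compared, and the 5-week alpha cells held more UMIs in all, 6986032 beside 2406336 in WT. There *Birc5* had 16 UMIs, *Ccnb2* 11, *Cdc20* 9, *Nusap1* 8, *Tpx2* 8, *Cenpe* 4 and *Ccnb1* 1. *Nusap1* and *Tpx2* at 1.15 CPM, *Cenpe* at 0.573 CPM and *Ccnb1* at 0.143 CPM lie below the WT limit. *Cdc20* at 1.29 CPM lies just above it. *Cenpa*, the histone of the centromere, had 1 UMI in WT and 18 at 5 weeks, *Cdk1*, the mitotic kinase, 1 and 15, and *Prc1*, which bundles microtubules of the central spindle, 3 and 13.

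Within the 5-week library, which does not rest on WT, alpha cells had higher CPM than beta cells for most of these genes. The alpha level was 18.3-fold the beta level for *Ube2c*, 9.15-fold for *Birc5*, 9.01-fold for *Cenpa*, 8.68-fold for *Cenpf* and 6.01-fold for *Cdk1*, and the interval of each ratio lies above 1-fold. For *Ccnb1*, *Ccna2* and *Aurka* it includes 1-fold. These intervals take UMIs as independent, but few cells held them. *Ube2c* was in 11 of 3322 alpha cells (0.331%, 0.165 to 0.592) and 6 of 5685 beta cells (0.106%, 0.0387 to 0.230). For each of the first 5 genes the alpha and beta shares of cells have overlapping intervals. The median alpha cell was shallower than the median beta cell there, and hormones took 47.8% of alpha and 66.3% of beta UMIs.

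The cells that carried several of these genes were then examined. A cell was marked as cycling when it held UMIs of at least 2 of the genes *Mki67*, *Top2a*, *Ube2c*, *Cdk1* and *Birc5*. The 5-week library had 23 marked cells of 11229 (0.205%, 0.130 to 0.307), WT had 4 of 12000 (0.0333%, 0.00908 to 0.0853) and 1 week had 0 of 2295, which allows a share of up to 0.131%. Of the members not used to mark, the marked alpha cells at 5 weeks held 11 of 26 UMIs of *Cenpf*, 4 of 18 of *Cenpa*, 3 of 11 of *Ccnb2*, 5 of 9 of *Cdc20*, 10 of 13 of *Prc1*, 6 of 8 of *Nusap1*, 3 of 8 of *Tpx2* and 1 of 4 of *Cenpe*. Most UMIs of *Cenpf*, *Cenpa*, *Ccnb2*, *Tpx2* and *Cenpe* thus lay in alpha cells that were not marked.

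The 5-week library was deeper than WT, at a median of 2467 and 1396 UMIs per cell, and 1 week, at 2759, was deeper than both. Depth was uneven at 1 week, where the 1521 cells of no class had a median of 655 UMIs. With each cell thinned to 1000 UMIs, 4 of 10055 5-week cells were marked (0.0398%, 0.0108 to 0.102) and 0 of 8657 WT cells, which allows up to 0.0347%, so at equal depth a difference was not detectable. This left out 1174 cells at 5 weeks and 3343 in WT that were shallower. At 1 week 879 were left out and 0 of 1416 were marked, which allows up to 0.212%. Thinned to 500 UMIs, 6 of 11229 and 1 of 12000 were marked. With 200 to 1500 detected genes and under 15% mitochondrial UMIs required, as in the methods of the study, 14 of 10235 5-week cells (0.137%, 0.0748 to 0.229) and all 4 WT cells remained. No WT cell exceeded 1500 genes, against 9 of the 23 marked cells at 5 weeks. With at least 3 of the 5 genes required, 16 cells were marked at 5 weeks and 0 in WT. Another 5 members, *Cenpf*, *Tpx2*, *Nusap1*, *Prc1* and *Ccna2*, marked 16 cells at 5 weeks, 3 in WT and 0 at 1 week, and both sets marked 13 cells at 5 weeks and 2 in WT.

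**Figure D3:**
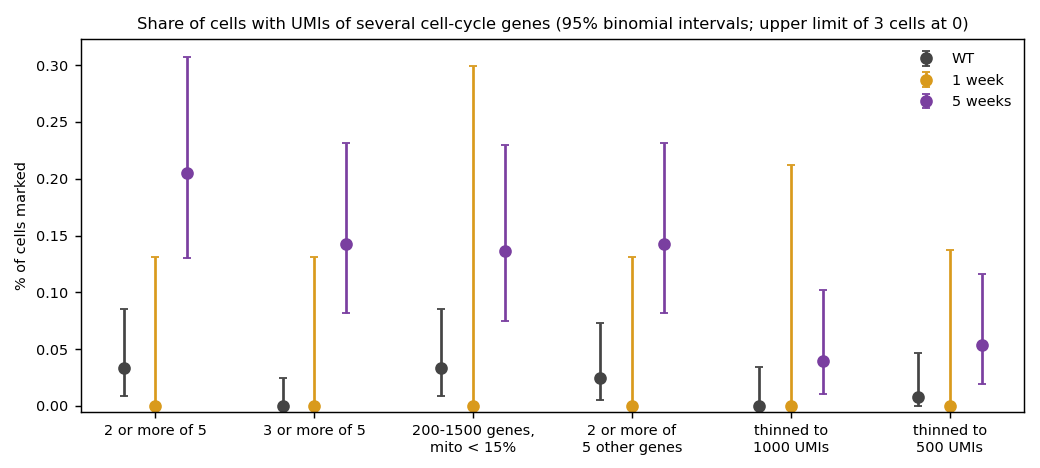
Percent of cells marked as cycling (vertical axis) in the WT, 1-week and 5-week libraries under 6 ways of marking (horizontal axis), with exact binomial 95% intervals and, at 0, the share that 3 cells would give. The 5-week share is 0.205% as deposited and 0.0398% at 1000 UMIs per cell, where its interval overlaps the WT limit.

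Alpha cells held most of the marked cells at 5 weeks. Of 3322 alpha cells 12 were marked (0.361%, 0.187 to 0.630), of 5685 beta cells 6 (0.106%, 0.0387 to 0.230) and of 1443 delta cells 2 (0.139%, 0.0168 to 0.500), with 1 cell counted in both alpha and delta. The intervals of alpha and beta cells overlap, and the marked beta cells were deeper, at 7561 to 12027 UMIs beside 1763 to 4606 in the alpha cells. In WT 3 of 8271 beta cells were marked and 0 of 2815 alpha cells, which allows up to 0.107%. At 1000 UMIs per cell 3 of 3008 5-week alpha cells were marked and 0 of 639 WT alpha cells, which allows up to 0.469%, so a difference between alpha cells was not detectable at equal depth.

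The marked alpha cells had 15.1% to 38.3% of UMIs from *Gcg*, where their class requires at least 15%. In 11 of the 12 *Ins2* took at most 3.01% of UMIs, and in the other 16.8%, beside 19.1% *Gcg*. *Sst* took 5.57% in the cell that is also in the delta class, 3.71% and 3.53% in another 2, and at most 0.345% in the other 9. The 6 marked beta cells at 5 weeks had 52.1% to 59.1% *Ins2* and at most 1.57% *Gcg*. A further 4 marked cells fell in no class. Of these, 3 carried both *Ins2* (16.4% to 52.5%) and *Gcg* (4.34% to 10.5%), and the fourth held 37 UMIs of 7 endothelial markers, 19 UMIs of 3 mesenchymal markers and 1.03% *Ins2*. No removal of doublets is stated for the mutant libraries, and the part of doublets in these cells was not tested.

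Markers of other cell types were counted in the marked cells. At 5 weeks T or B cell markers had no UMI in any marked cell, macrophage markers had 1 UMI in each of 2 cells, red cell markers 1 UMI in 1 cell, and 2 of 23 marked cells held an endothelial marker. Ductal markers were found in 21 of 23, at 711 CPM beside 604 CPM in the other cells, with the defining *Krt19* and *Sox9* at 0. Acinar markers were found in all 23, at 703 CPM beside 874 CPM in the other cells of the library. In WT, 1 of the 4 marked cells belonged to no class and held 5377 UMIs of acinar markers out of 9312. Another, classed as beta, held 205 UMIs of all 10 acinar markers out of 3641, and the other 2 held 6 and 7. In the other WT cells acinar markers took 9568 CPM. The part of these markers in the marking was not tested.

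**Figure D4:**
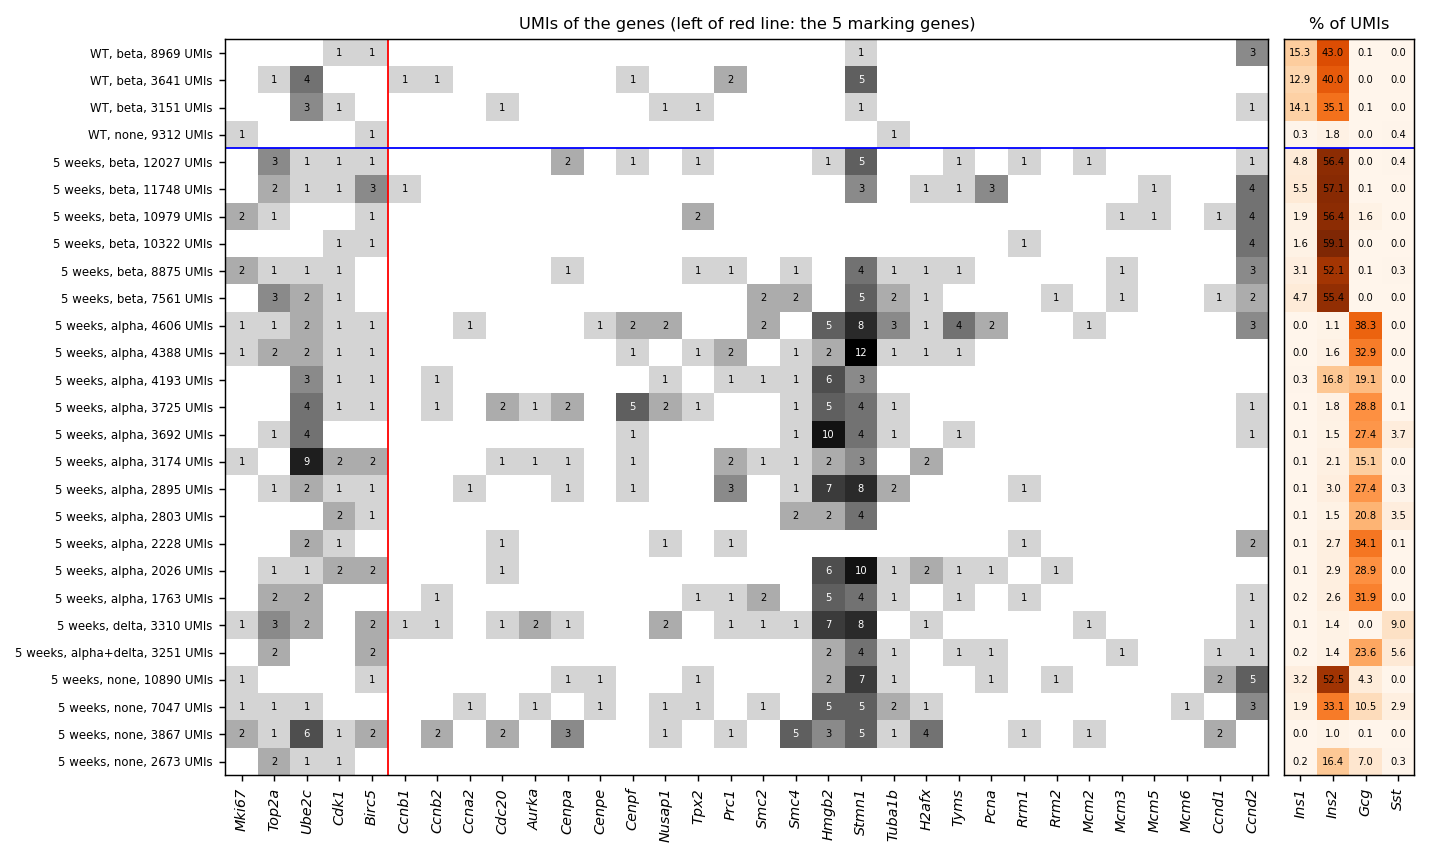
UMIs of 32 members (across, darker for more UMIs) in each marked cell (down, named by library, class and total UMIs), with the marking genes left of the red line, WT above the blue line, and the percent of UMIs from Ins1, Ins2, Gcg and Sst at the right. Hmgb2 and Stmn1 were each found in 11 of the 12 marked alpha cells at 5 weeks, with Gcg as their highest hormone.

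The 29 members that did not choose the cells were compared between the 23 marked cells and the other cells of the 5-week library, and 27 were at least 2-fold higher in the marked cells. Of the 29, 26 had a log2 interval above 0. No minimum of UMIs was set here, and the share over all genes was not counted. Deeper cells are more readily marked, so 12 marked alpha cells (median 3212.5 UMIs) were also set beside 1782 other alpha cells within their range of UMIs (median 2280.5). There 24 of 29 were at least 2-fold higher, and 21 had a log2 interval above 0. *Mcm2*, *Mcm3*, *Cenpe* and *Rrm2*, counted as higher, had 1 UMI each in the marked cells. There 1 UMI makes 25.8 CPM, so a rare gene can pass 2-fold on 1 UMI. *Rrm2*, which also had 1 UMI in the other alpha cells, is among the 21 with an interval above 0. Without the share over all genes, these counts are not a result about the members. *Stmn1* was at 1652 CPM in marked and 15.7 CPM in other alpha cells, *Hmgb2* at 1342 and 61.2 CPM, *H2afz* at 3097 and 471 CPM, and *Cenpf* at 284 and 2.95 CPM. *Nusap1*, with 6 UMIs in marked and 1 in the other alpha cells, and *Prc1*, with 10 and 2, had most of these UMIs in the marked cells. Counts this small leave wide intervals, as for *Nusap1* with a log2 ratio from 6.37 to 14.94.

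The D cyclins did not follow this pattern. Over the whole library the marked and the other cells held 54.7 and 55.5 CPM of *Ccnd1* and 281 and 336 CPM of *Ccnd2*. Among matched alpha cells *Mcm5*, *Mcm6* and *Ccnb1* had 0 UMIs in the marked cells. The replication genes *Tyms* (9 UMIs in marked cells, 24.98-fold), *Rrm1* (3 UMIs, 26.3-fold) and *Pcna* (4 UMIs, 11.1-fold) were higher. In beta cells, 6 marked cells beside 971 others of like depth, 17 of the 29 were at least 2-fold higher, 11 had a log2 interval above 0 and 7 had 0 UMIs. The share over all genes was not counted there either. *Hmgb2* had 1 UMI in the marked beta cells, at 16.3 CPM beside 10.6 CPM in the others, while *Stmn1* had 17 UMIs and was 55.8-fold higher.

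**Figure D5:**
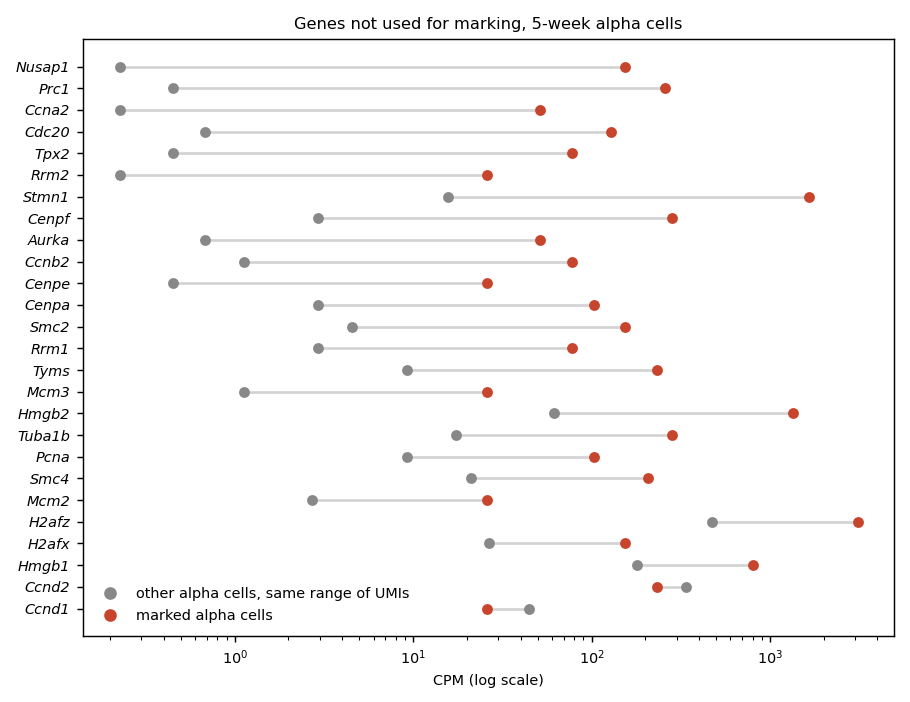
CPM (log axis) of each member not used for marking and with UMIs in both groups, in 12 marked 5-week alpha cells (red) and 1782 other alpha cells in the same range of UMIs (grey). All but Ccnd1 and Ccnd2 lie further right in the marked cells.

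Promoters of the members were searched for short motifs known from cell-cycle genes. RefSeq promoters (GRCm38.p6, the build of the files) were found for 27 of the 34 members, 29 promoters in all. In the 250 bases before the start, on both strands, CCAAT was present in 24 of 29 (82.8%), against 33.8% of all 32851 promoters. The cell cycle homology region TTTGAA was present in 10 (34.5%, against 16.0%), and an E2F site, written either as TTCCCGC or in the form TTGGCGC, and also when spelled TTCGCGC or in the variant TTGCCGC, in 8 (27.6%, against 7.89%). The TATA box TATAAA was present in 0 of 29, against 12.4% of all promoters. Of 15 G2 and mitosis members with a promoter, 13 had CCAAT and 8 had TTTGAA, and of 8 replication members 7 had CCAAT and 4 an E2F site. Hits may overlap, as where CCAAT and an E2F site share bases in *H2afz* and *Ccnb1*. A match is only a run of letters, and no match says nothing of the factor.

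The 150 bases before the start of 6 members are shown as examples that hold motifs, chosen with the matches known: 4 genes of mitosis, the replication gene *Mcm6* with its paired E2F letters, and *Hmgb2*. *Birc5*, *Nusap1*, *Tuba1b* and *Tyms* held none of these motifs in the 250 bases. The sequences read 5′ to 3′ on the strand of the gene in GRCm38.p6, and capitals mark matches to the motifs above on either strand. The windows are chr2:164769779-164769928 (plus) for *Ube2c*, chr9:70421555-70421704 (minus) for *Ccnb2*, chr4:118437344-118437493 (minus) for *Cdc20*, chr1:189688087-189688236 (minus) for *Cenpf*, chr1:128359706-128359855 (minus) for *Mcm6* and chr8:57511693-57511842 (plus) for *Hmgb2*.
Ube2c: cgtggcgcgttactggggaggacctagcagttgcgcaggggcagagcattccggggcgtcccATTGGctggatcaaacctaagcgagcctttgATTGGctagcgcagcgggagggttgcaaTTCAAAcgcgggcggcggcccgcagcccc
Ccnb2: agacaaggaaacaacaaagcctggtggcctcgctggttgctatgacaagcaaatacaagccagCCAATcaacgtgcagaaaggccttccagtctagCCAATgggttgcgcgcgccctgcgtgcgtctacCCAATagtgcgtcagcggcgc
Cdc20: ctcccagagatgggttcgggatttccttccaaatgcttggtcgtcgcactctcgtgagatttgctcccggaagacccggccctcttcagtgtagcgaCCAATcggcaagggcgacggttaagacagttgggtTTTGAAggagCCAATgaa
Cenpf: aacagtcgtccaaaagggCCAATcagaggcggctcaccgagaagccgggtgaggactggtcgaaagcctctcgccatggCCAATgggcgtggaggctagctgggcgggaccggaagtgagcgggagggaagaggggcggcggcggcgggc
Mcm6: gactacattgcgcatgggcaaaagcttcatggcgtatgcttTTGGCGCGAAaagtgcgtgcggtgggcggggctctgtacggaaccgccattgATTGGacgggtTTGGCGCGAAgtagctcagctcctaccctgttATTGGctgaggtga
Hmgb2: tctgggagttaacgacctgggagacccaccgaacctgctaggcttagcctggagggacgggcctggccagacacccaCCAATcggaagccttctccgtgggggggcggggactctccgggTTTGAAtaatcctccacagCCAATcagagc

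CCAAT is seen at 2 or more places in all 6 windows, on the minus strand as ATTGG in *Ube2c* and *Mcm6*. *Cdc20* and *Hmgb2* carry TTTGAA between a pair of CCAAT matches, and *Ube2c* carries it on the minus strand nearest the start. *Mcm6* holds 4 E2F matches in the window, as overlapping pairs on opposite strands.

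The wider cell-cycle lists, 100 genes in 5 lists that hold no member, were compared with the same rule. At 5 weeks in beta cells 1 of 16 G1 regulators compared was higher by 2-fold and 1 lower, 2 of 6 CDK inhibitors were higher, 3 of 19 replication genes were higher, 3 of 13 G2 and mitosis genes were higher and 1 lower, and 1 of 13 condensin and cohesin genes was lower, beside 9.43% and 5.99% of all genes. In alpha cells 2 of 10, 1 of 6, 4 of 14, 0 of 11 and 0 of 11 were higher and none was lower, beside 7.41% and 2.11% of all genes. In delta cells 1 of 7, 2 of 3, 1 of 12, 0 of 7 and 0 of 11 were higher and 1 cohesin gene was lower, beside 10.4% and 3.56%.

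The inhibitors of the cycle gave the largest beta cell difference in these lists. *Cdkn1a* encodes p21, which blocks cyclin-dependent kinases, and beta cells of WT, 1 week and 5 weeks held 12.8, 216 and 127 CPM of it, 9.87-fold WT at 5 weeks. In alpha cells *Cdkn1a* was 50.7, 120 and 87.9 CPM, and in delta cells 56.7, 32.6 and 121 CPM. *Cdkn1c*, which encodes p57, had 8 UMIs in WT and 91 at 5 weeks in beta cells, a log2 ratio of 2.71. *Cdkn1b* (p27) had log2 ratios at 5 weeks of 0.80 in beta, 0.75 in alpha and 1.07 in delta cells. *Cdkn2b*, *Cdkn2c* and *Cdkn2d*, the INK4 inhibitors, had log2 ratios of -0.21, -0.09 and 0.17 in beta cells and of 1.05, 0.49 and 0.61 in alpha cells, and *Cdkn2a* had at most 9 UMIs in any class.

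The kinases and the remaining D cyclin were within 2-fold at 5 weeks where they could be compared. *Cdk4*, the partner of the D cyclins, had log2 ratios of -0.02, -0.06 and -0.12 in beta, alpha and delta cells, *Ccnd3* -0.08, -0.16 and -0.22, and *Cdk6* had at most 5 UMIs in any class. The lowest ratios in beta cells were those of the transcription factor *E2f1* (-2.95, 53 UMIs in WT and 12 at 5 weeks), the spindle checkpoint gene *Mad2l1* (-1.45) and the condensin gene *Ncapg2* (-1.15), and the next highest after *Cdkn1a* and *Cdkn1c* was that of the clamp loader *Rfc4* (1.63). The interval of *Ncapg2* runs from -2.43 to 0.10. In alpha cells the highest were the primase *Prim1* (2.02), *E2f3* (1.74) and the fork protein *Tipin* (1.36), and the lowest the cohesin regulators *Pds5a* (-0.75) and *Pds5b* (-0.73) and the cohesin subunit *Rad21* (-0.73). In delta cells the highest were *Mcm4* (2.36), *E2f5* (1.16) and *Cdkn1a* (1.10), and the lowest *Pds5b* (-1.28), *Stag2* (-0.73) and *Rad21* (-0.68). *Mcm4* had 1 UMI in WT delta cells and *E2f5* 3, and both intervals include 0.

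At 1 week the levels can be read only against a large shift of all genes. Hormones took 42.8% of beta cell UMIs at 1 week and 68.0% in WT, which leaves a larger share for the other genes together, and the class limits and depth differed too. Of the 2295 cells at 1 week, 1521 were in none of the 3 classes. In beta cells 12 of 15 members compared were higher by 2-fold or more and 0 lower, against 55.0% and 3.89% of all genes. In alpha cells it was 5 of 15 and 0, against 33.3% and 6.17%, and in delta cells 1 of 7 and 0, against 27.4% and 3.22%. With the hormone genes left out of the total, 4 of 15 members were higher and 1 lower in beta cells, against 17.2% and 9.95% of all genes. The same totals gave 4 higher in alpha cells and 0 in delta cells, against 21.6% and 18.0% of all genes higher and 9.51% and 5.12% lower. The median log2 ratio in beta cells was 1.64 for the members compared and 1.10 for all genes.

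Some members stood above that shift at 1 week. In beta cells the log2 ratios were 2.70 for *Tuba1b* (7.85 CPM in WT, 50.9 CPM at 1 week), 2.65 for *Hmgb2* and 2.29 for *Smc4*, and without the hormone genes they were 1.86, 1.82 and 1.45. Within 200 to 1500 detected genes, which left 17 of the 562 beta cells, *Hmgb2* was at -0.12. In alpha cells *Hmgb2* had a log2 ratio of 2.36 and *Stmn1* of 2.44. In delta cells *Tuba1b* was 31.7 CPM in WT and 74.4 CPM at 1 week. Its log2 ratio of 1.23 (0.35 to 2.20) is not apart from the median of 0.54 over all genes there. *Ccnd2* again differed in direction between classes, at 493 CPM in beta, 301 CPM in alpha and 651 CPM in delta cells, log2 ratios of 1.12, -0.56 and 0.86, and the beta ratio was -1.54 in those 17 cells. The late genes were rare: *Ube2c* had 2 UMIs in beta cells, 1 in alpha cells and 0 in delta cells, *Ccnb2* had 2 UMIs over the 3 classes, and *Mki67* had 5 UMIs in beta cells, 0 in alpha and delta cells and 9 over the whole library.

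In the wider lists at 1 week, 4 of 6 CDK inhibitors, 5 of 15 G1 regulators, 12 of 17 replication genes, 8 of 14 G2 and mitosis genes and 9 of 13 condensin and cohesin genes were higher by 2-fold or more in beta cells and 1 G1 regulator was lower, beside 55.0% and 3.89% of all genes. Without the hormone genes in the total, a setting chosen after seeing the data, the same lists had 3 of 6, 2 of 15, 3 of 17, 4 of 14 and 4 of 13 higher, beside 17.2% of all genes. With all UMIs counted, the highest in beta cells were the centromere gene *Incenp* (4.07), *Cdkn1a* (4.07) and the transcription factor *Myc* (3.47), and the lowest *E2f1* (-1.38), *Cks1b* (-0.89) and *E2f2* (-0.73). The interval of *E2f2* includes 0. In alpha cells 3 of 6, 4 of 9, 7 of 14, 3 of 10 and 4 of 12 were higher, beside 33.3% of all genes. Without the hormone genes it was 0 of 6, 4 of 9, 6 of 14, 2 of 10 and 2 of 12, beside 21.6%, and with all UMIs counted the highest were *Myc* (3.93), *Ung* (2.89) and *Lig1* (2.59) and the lowest *Pds5b* (-0.40), *Ccnd3* (-0.21) and *Rfc2* (-0.15). The intervals of these lowest alpha ratios all include 0. In delta cells 1 of 3, 2 of 4, 0 of 4, 2 of 7 and 0 of 11 were higher and 1 replication and 1 cohesin gene lower, beside 27.4% and 3.22% of all genes, with *Tubb5* (1.76), *Cdkn1b* (1.38) and *Ckap5* (1.37) highest and *Pds5b* (-1.33), *Tipin* (-1.13) and *Cdkn1a* (-0.80) lowest. Without the hormone genes it was 1 of 3, 0 of 4, 0 of 4, 2 of 7 and 0 of 11 in delta cells, beside 18.0%. The intervals of the *Tipin* and *Cdkn1a* ratios in delta cells include 0. *Cdkn1b* and *Cdkn1c* had log2 ratios of 2.14 and 3.44 in beta cells and 1.12 and 0.44 in alpha cells, and *Cdkn2b*, *Cdkn2c* and *Cdkn2d* of 0.93, 1.17 and 0.62 and of 1.21, 0.03 and -0.12. *Cdk4* had log2 ratios of 0.87, 0.84 and 1.17 in the 3 classes.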

How the data were processed

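Single-cell RNA was captured from sorted live islet cells with 10X Genomics Chromium, 1 library each for WT, 1 week and 5 weeks. The deposited tables give unnormalized UMI counts for each gene in each barcode, which the authors made with Cell Ranger 3.1 on mm10. The submitters' processing notes also name bcl2fastq 2.17.1.14 and Seurat 3.1.4. In WT only, the authors removed doublets and cells with several hormones and reduced the library to 12000 cells. The tables held 2295 to 12000 barcodes and 19472212 to 39408284 UMIs.

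The members and lists were chosen with earlier results of these data known. UMIs were summed per class and library with Python 3.11.15, numpy 2.4.6 and scipy 1.17.1, and figures drawn with matplotlib 3.10.9. Levels carry exact Poisson, ratios exact conditional and shares Clopper-Pearson 95% intervals. A count of 0 was taken to allow 3 counts, and 2-fold differences were counted where a gene reached 20 UMIs over both classes compared. Intervals cover counting error only, and thinned cells shallower than the target were left out. The intervals and the thinning were tested on simulated data. Named genes are the 34 members, Taf4, the CDK inhibitors, *Ccnd3*, *Cdk4*, *Cdk6* and the 3 highest and 3 lowest ratios of the wider lists. Sex-linked genes were named after their values were seen. Alternatives were other totals, cell limits, depths, classes and marking genes.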

Additional observations from a re-analysis of the deposited data

Results flagged for a closer look

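The ratio of *Ccnd2* to WT had opposite signs in different classes, with counting intervals that do not include 0. At 5 weeks the log2 ratio was 0.55 in beta cells (0.50 to 0.61) and -0.38 in alpha cells (-0.48 to -0.27). At 1 week it was 1.12 in beta cells, -0.56 in alpha cells and 0.86 in delta cells. With the hormone genes left out of the total the 5-week values were 0.48 and -0.21, and with cells thinned to 1000 UMIs they were 0.54 and -0.39. At 1 week the values without the hormone genes were 0.29, -0.90 and 0.59, and the beta value was -1.54 in the 17 beta cells with 200 to 1500 detected genes. With 1 library per group the difference between classes was not tested, and the part of depth and hormone share in it was not tested either.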

How the results depend on the processing

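No paired analysis was possible because each group is 1 library, and no replicate could be left out. Of 595 ratios of members recomputed over all settings, 532 stayed within their counting interval, 58 moved outside it and 5 turned. Those 5 were *Ccnd2* (-1.54), *Hmgb1* (-2.19) and *Hmgb2* (-0.12) in 1-week beta cells within 200 to 1500 genes, a limit that kept 17 of 562 cells, and *Mcm6* in alpha cells thinned to 1000 UMIs at 1 week (-0.13) and 5 weeks (-0.43). The cause of the other turns was not tested.

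Members higher by 2-fold at 5 weeks in beta cells numbered 5, against 3 without hormone genes and 11 with the mean of single cells. In alpha cells they numbered 5, against 2 when thinned to 1000 UMIs and 3 without marked cells, with 1 lower without marked cells and 1 lower by the mean of single cells. In delta cells 1 was lower, against 0 without hormone genes, 0 when thinned, 0 in cells of exactly 1 class and 2 without marked cells. At 1 week in beta cells 12 were higher, against 4 without hormone genes (1 lower), 1 within the gene limits (3 lower) and 7 when thinned. In alpha cells 5 were higher, against 0 within the limits and 0 when thinned, and in delta cells 1, against 0 without hormone genes, 0 when thinned and 2 with the WT class limits.

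With 100 or more UMIs required, the share of all genes higher in 5-week alpha and delta cells was 3.24% and 3.80%, and lower 1.23% and 1.62%, and at 1 week the share lower in beta and delta cells was 2.49% and 5.25%. With no minimum beyond 1 UMI in each class, the share lower was 5.79% in 5-week alpha, 10.8% in 5-week delta, 9.58% in 1-week alpha and 6.6% in 1-week delta cells. The marked share in WT was 0% with 3 genes required, 0% at 1000 UMIs and 0.00833% at 500 UMIs, and at 5 weeks 0.0398% and 0.0534% at these depths. Of 29 members 17 were higher in marked beta cells, against 27 in all marked cells, and 11 and 26 had a log2 interval above 0. The share over all genes was not counted for these. Leaving out mitochondrial genes, chosen after seeing the data, moved none of 85 ratios, and CCAAT was present in 35.4% of protein-coding promoters, a background also chosen after seeing the data.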
